A study of Mus musculus with 4 samples.

Results

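The genes described here encode 9 transporters and channels for chloride, bicarbonate and sulfate: the SLC26 proteins Slc26a2, Slc26a3, Slc26a6, Slc26a7, Slc26a9 and Slc26a11, the exchanger Slc4a2, and the chloride channels Cftr and Ano1. They were chosen by symbol, and all 9 were found among the 52125 rows of the deposited gene table. The tissue was the corpus, the part of the stomach that makes acid, of wild type C57BL/6 mice aged 6 to 8 weeks. In the HDT group, 2 mice had been injected once into the peritoneum with HDT, at 5 mg for each 20 g that they weighed, to injure the tissue, and in the Vehicle group 2 mice served as controls. All were sampled at 48 hr, and 1 mouse gave 1 library. In studies of gastric injury HDT mostly means high-dose tamoxifen, but the labels do not spell it out, and they call the controls both vehicle and untreated. The whole corpus was extracted, so fewer cells of a type and less RNA per cell cannot be told apart in any result below.

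The parietal cell secretes acid through the proton pump of its apical membrane, whose subunits are Atp4a and Atp4b. Each proton leaves a bicarbonate ion behind, which exits across the basolateral membrane in exchange for chloride, while chloride follows the proton through apical channels. Surface mucous (pit) cells secrete bicarbonate into the mucus layer, and ductal and injured epithelia use chloride channels to drive fluid secretion.

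Of the 9 genes, 4 fell after HDT, 2 rose, 2 passed no test and 1 had too few reads to be tested. Slc26a7, Slc4a2, Slc26a9 and Slc26a6 fell, and Cftr and Slc26a2 rose. Over all 18285 genes tested with limma, 37.7% had an adjusted p under 0.05, with 18.4% higher and 19.3% lower. All 4 genes that fell did so by at least 2-fold, as did 4.5% of tested genes, and with Cftr 5 members were called with a change of that size in either direction, as were 8.58% of tested genes. The groups did not overlap for 8 of the 9 genes, 7 of them among the 8 tested, beside 70.8% of all tested genes. At the scaling of the deposited values 3 members were higher and 4 lower, where 62.8% of tested genes were higher and 5.46% lower. Levels are in CPM, reads scaled to a common library size after TMM, a method that sets the bulk of genes to no change. Fold changes are on the log2(value + 1) scale.

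The 4 libraries held between 41536686 and 42674985 recovered reads. The proton pump genes marked the tissue as corpus in every library, with Atp4a at 6782 and 7649 CPM in Vehicle and 1109 and 880 CPM in HDT. Of 15 parietal cell markers, 14 were tested, and 11 of these were lower and 0 higher in HDT (8 lower and 2 higher at the deposited scaling). Without TMM, at the deposited scaling, the middle of the log2 fold changes over tested genes was 0.53, and 92% of the calls were rises. Vehicle replicate 2 held reads of pancreatic acinar genes that were rare in the others, such as 979 reads of the lipase Pnlip, of which the other 3 libraries had 2 to 6. The summed level of all 11 pancreatic and ductal markers was 2071 to 2153 CPM in Vehicle and 1909 to 2213 CPM in HDT, of which the keratin Krt19 made up most.

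**Figure D1:**
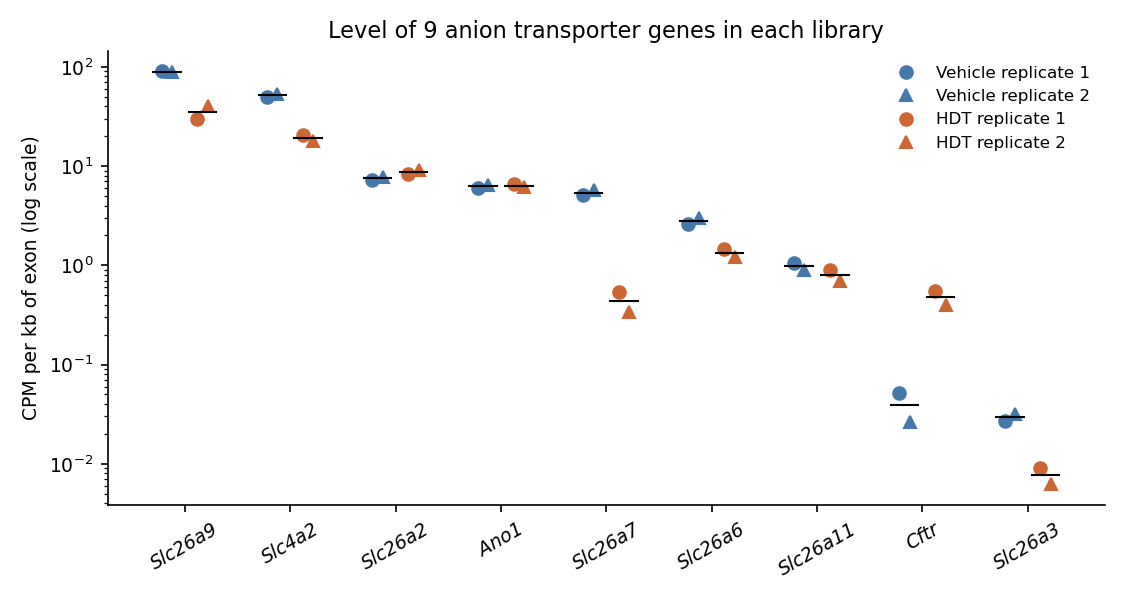
Level of each gene in each library, in CPM per kb of exon on a log axis (circles, replicate 1; triangles, replicate 2; lines, group means; genes ordered by the Vehicle mean). Slc26a7 and Cftr show the widest separation of the groups, in opposite directions, and the Ano1 libraries overlap.

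Slc4a2 and Slc26a7 encode the chloride-bicarbonate exchangers of the parietal cell's basolateral membrane. Slc4a2, also known as AE2, lies on chromosome 5 at 24423837 to 24440950 (GRCm38). It was at 414 and 447 CPM in the Vehicle libraries and at 172 and 149 CPM in the HDT libraries. The groups did not overlap, and the fall of 2.69-fold was far beyond the spread within either group (log2 fold change −1.43, SE 0.08, limma adjusted p = 1.43e-05). Of the 8322 bases of its merged exons, 1141 are shared with genes on the opposite strand, chiefly Fastk. Fastk was at 179 and 184 CPM in Vehicle and at 94.4 and 85.3 CPM in HDT. The strand setting of the authors' counting is not given in the sources used here, and the part of Fastk reads in the Slc4a2 value was not tested.

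Slc26a7 lies on chromosome 4 at 14502430 to 14621805. Its level was 27.5 and 31.0 CPM in Vehicle and at 2.90 and 1.82 CPM in HDT. Those levels rest on 969, 1069, 149 and 92 reads. The fall was 12.6-fold (log2 fold change −3.66, SE 0.22, limma adjusted p = 8.57e-05), and 32 of the 18285 tested genes fell further. Slc26a7 thus went from 66.4 and 69.4 reads per 1000 Slc4a2 reads in Vehicle to 16.9 and 12.2 in HDT, a change that the library scaling cannot affect. The log2 difference of this ratio was −2.24, with SDs of 0.04 within Vehicle and 0.33 within HDT. With 2 mice against 2, the exact two-sided permutation test can go no lower than p = 0.333, which it gave here.

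Most parietal cell markers, 11 of the 14 tested, were lower beside both exchangers, and Kcnq1, Esrrg and Car2 had no call. Car2 was at 2395 and 2269 CPM in Vehicle and at 2519 and 3030 CPM in HDT, and it was called higher at the deposited scaling. The summed level of the 15 markers was 16020 to 17133 CPM in Vehicle and 5345 to 5465 CPM in HDT. Atp4b was at 4723 and 4974 CPM in Vehicle and at 563 and 494 CPM in HDT, a log2 fold change of −3.20. Markers of chief cells, which secrete pepsinogen, were lower too, 5 of 7 tested with TMM and 4 as deposited, and their summed level was 155670 and 188970 CPM in Vehicle and 45442 and 32109 CPM in HDT. The part that parietal and chief cells have in the falls of Slc4a2 and Slc26a7 was not tested.

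Slc26a9 encodes a chloride transporter and channel of gastric and airway epithelium. It lies on chromosome 1 at 131744022 to 131771504. It had the highest level per exon length of the 9 genes in every library, at 89.9 and 88.4 CPM per kb in Vehicle and 29.8 and 40.3 CPM per kb in HDT. In CPM it was at 470 and 462 in Vehicle and at 156 and 210 in HDT. The HDT libraries differed more from each other than the Vehicle libraries did, yet both were far below them. The fall was 2.57-fold (log2 fold change −1.36, SE 0.14, limma adjusted p = 0.000996). All 6 pit cell markers tested were lower with TMM and 2 were at the deposited scaling (medians −0.81 and −0.27), with a summed level of 120350 to 123330 CPM in Vehicle and of 65737 and 80615 CPM in HDT replicates 1 and 2. HDT replicate 2 had the higher value of Slc26a9 and of the pit cell sum. The parietal, mucous neck and fibroblast marker sums were also higher in that library, while the chief cell and injury marker sums were lower. In the parietal list, Car2 (2519 and 3030 CPM in HDT replicates 1 and 2), Kcnj16, Ckb and Hgd were higher there. The other parietal markers were lower there, such as Atp4a (1109 and 880 CPM) and Atp4b (563 and 494 CPM). The part that pit cells have in the fall of Slc26a9 was not tested. Per 1000 pit marker reads, Slc26a9 had 3.81 and 3.84 reads in Vehicle and 2.37 and 2.61 in HDT, a denominator chosen after the data were seen. That log2 difference was −0.62, and against the same markers it was −0.69 for Slc4a2, −2.93 for Slc26a7 and −0.32 for Slc26a6. It was above 0 for Slc26a2, Ano1 and Slc26a11. The Slc26a9 to Slc4a2 ratio did not separate the groups, at 1134 and 1033 Slc26a9 reads per 1000 Slc4a2 reads in Vehicle and 909 and 1413 in HDT (log2 difference 0.07, exact permutation p = 1).

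The promoters of the abundant pair that fell, Slc26a9 and Slc4a2, and of Cftr, which rose most, are shown to set their base composition and motifs side by side. Each is the 250 bases before a RefSeq start site on GRCm38.p6, on the plus strand, 5′ to 3′. The windows are chr1:131743772-131744021 for Slc26a9, chr5:24424982-24425231 and chr5:24425594-24425843 for Slc4a2, and chr6:18170437-18170686 for Cftr. Both Slc4a2 windows lie inside the gene span given above, downstream of its start at 24423837. Capitals mark matches on either strand to 5 motifs. The TATA box was searched as TATAAA. The CCAAT box was searched by its own letters. The half-site of nuclear receptors was searched as AGGTCA. For the cAMP response element the letters were TGACNTCA. The GC box was searched as GGGCGG.
Slc26a9: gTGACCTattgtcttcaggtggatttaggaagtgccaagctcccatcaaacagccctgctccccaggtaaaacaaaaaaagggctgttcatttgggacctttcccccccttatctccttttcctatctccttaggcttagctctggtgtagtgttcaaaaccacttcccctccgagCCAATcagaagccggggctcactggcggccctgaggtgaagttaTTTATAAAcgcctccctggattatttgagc
Slc4a2, upstream start: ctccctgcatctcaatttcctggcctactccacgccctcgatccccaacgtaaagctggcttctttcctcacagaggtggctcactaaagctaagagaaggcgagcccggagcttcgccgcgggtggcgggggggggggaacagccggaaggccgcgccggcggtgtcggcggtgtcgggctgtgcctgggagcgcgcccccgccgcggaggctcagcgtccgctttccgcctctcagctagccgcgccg
Slc4a2, downstream start: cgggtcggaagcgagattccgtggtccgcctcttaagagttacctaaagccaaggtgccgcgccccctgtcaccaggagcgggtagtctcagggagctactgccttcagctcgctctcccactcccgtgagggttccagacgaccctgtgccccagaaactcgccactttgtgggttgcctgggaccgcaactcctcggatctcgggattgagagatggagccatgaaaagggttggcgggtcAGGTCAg
Cftr: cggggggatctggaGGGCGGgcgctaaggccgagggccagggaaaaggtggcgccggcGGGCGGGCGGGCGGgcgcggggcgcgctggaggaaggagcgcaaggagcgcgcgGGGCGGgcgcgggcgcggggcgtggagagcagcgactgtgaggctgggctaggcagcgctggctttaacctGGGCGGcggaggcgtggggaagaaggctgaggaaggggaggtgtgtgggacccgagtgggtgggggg
The Slc26a9 window held a TATA box, 28 to 23 bases before the start, whose letters overlap a match on the other strand. It also held a CCAAT box 74 to 70 bases before it and a reversed half-site near its far end. TATAAA occurred in 12.4% and the CCAAT box in 33.8% of the 32851 promoter windows of this length in RefSeq. In the Slc4a2 windows, the upstream one had no match and the downstream one had 1 half-site, 7 to 2 bases before its start, where 14.0% of all windows hold one. The Cftr window was the richest in G and C, at 76.4%, and the Slc4a2 windows had 69.2% and 61.2%. It held 6 GC boxes, of which 3 overlap one another, and 32.7% of all windows hold at least 1. The cAMP response element, found in 7.49% of all windows, had no match in these letters. RefSeq promoters were found for 6 of the 9 genes, and the motifs were chosen after these sequences had been read.

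Slc26a6 and Slc26a3 encode apical chloride-bicarbonate exchangers, Slc26a6 in small intestine, kidney and pancreatic duct and Slc26a3 in the colon. Slc26a6 lies on chromosome 9 at 108853283 to 108913049. It was at 13.9 and 16.2 CPM in Vehicle and at 7.93 and 6.52 CPM in HDT. The groups did not overlap, and the fall was 2.09-fold (log2 fold change −1.06, SE 0.13, limma adjusted p = 0.000511). Without Vehicle replicate 2, the library with pancreatic reads, the log2 fold change was −0.96 and the call was kept.

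Slc26a3, on chromosome 12 at 31390871 to 31473917, had 6 and 7 reads in the Vehicle libraries and 3 and 2 reads in the HDT libraries, too few for the low-count filter. The pooled HDT to Vehicle ratio was 0.26, with an exact 95% counting interval of 0.07 to 0.79 that leaves out the variation between mice. Of 11 markers of intestinal absorptive cells 5 were tested, of which 1 was higher, 2 were lower and 2 had no call. The microvillus protein Vil1 was higher, at 36.8 and 34.1 CPM in Vehicle and at 48.9 and 65.5 CPM in HDT (limma adjusted p = 0.0134). Others were near 0: the transcription factor Cdx1 had 1, 1, 0 and 1 reads and the carbonic anhydrase Car1 had 1, 1, 0 and 4. The apolipoproteins Apoa1 and Apoa4 were the ones that were lower, and Apoa1 was the most abundant of the 11. The list's summed level was 1554 to 1714 CPM in Vehicle and 154 to 169 CPM in HDT.

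**Figure D2:**
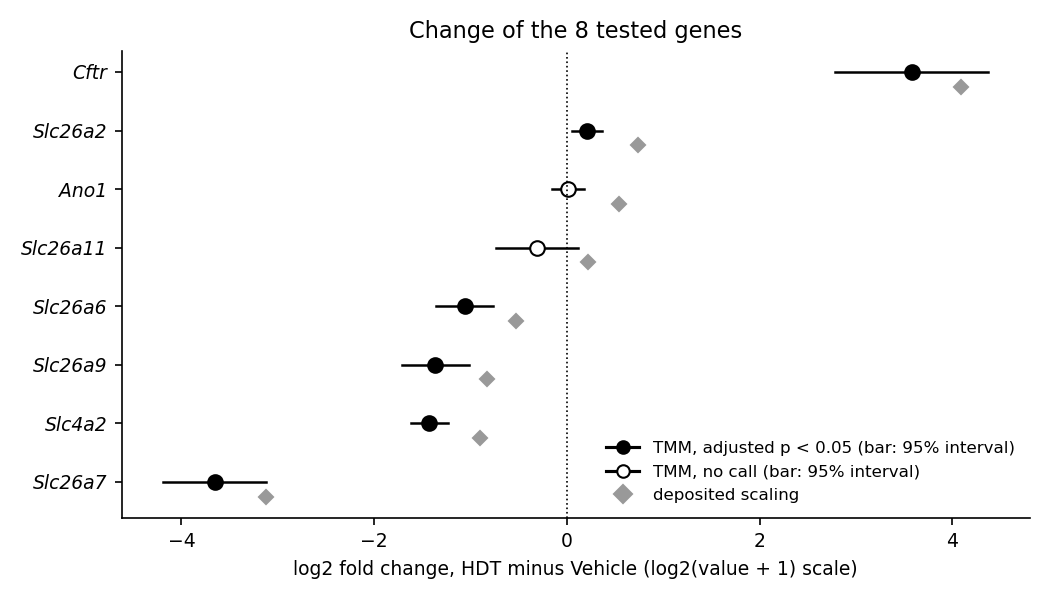
Log2 fold change of HDT against Vehicle for the 8 tested genes, with 95% limma intervals (filled, adjusted p under 0.05; open, no call), and the value at the deposited scaling (grey diamonds). Slc26a7, Slc4a2, Slc26a9 and Slc26a6 lie below 0 at both scalings and Cftr and Slc26a2 above 0, while Slc26a11 changes sign and Ano1 moves from 0.01 to 0.55.

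Cftr encodes the cAMP-activated chloride and bicarbonate channel of ductal and intestinal epithelium. It lies on chromosome 6 at 18170687 to 18322768. It had 14 and 7 reads in the Vehicle libraries and 221 and 156 reads in the HDT libraries. In CPM it was at 0.40 and 0.20 in Vehicle and at 4.30 and 3.09 in HDT. Both HDT libraries were thus far above both controls, and the rise was 11.96-fold (log2 fold change 3.58, SE 0.34, 95% interval 2.78 to 4.38, limma adjusted p = 0.000166). Among the tested genes, 11 rose further. Per exon length Cftr was still low after HDT, at 0.55 and 0.40 CPM per kb, below Slc26a11 in both libraries. Without Vehicle replicate 2 the log2 fold change was 3.13 and without Vehicle replicate 1 it was 4.03.

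Of 8 markers of gastric injury and metaplasia, 7 rose with Cftr and 0 fell. The other, Aqp5, had no call with TMM (log2 fold change −0.09). The summed level of the 8 was 1406 to 1559 CPM in Vehicle and 6804 to 8135 CPM in HDT. Clu made up most of it, at 1237 and 1356 CPM in Vehicle and 6877 and 5639 CPM in HDT. Most mucous neck cell markers went the other way, with 3 of 4 lower at both scalings. Their summed level was 1688 to 1721 CPM in Vehicle and 670 to 706 CPM in HDT. The remaining marker, A4gnt, had no call with TMM (log2 fold change 0.12). At the deposited scaling A4gnt was higher (0.65, limma adjusted p = 0.000193). Other markers were also higher in HDT: 5 of 5 of proliferating cells (median log2 fold change 1.95), 5 of 6 of fibroblasts (0.93) and 2 of 4 tested of immune cells (0.81). The part of any of these cells in the rise of Cftr was not tested. Cftr exons share 129 bases with the opposite-strand gene Gm15592, which stayed at or below 0.21 CPM in every library.

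Ano1 encodes a calcium-activated chloride channel of secretory epithelium and of interstitial cells of Cajal, the pacemaker cells of the gut wall. It lies on chromosome 7 at 144588549 to 144751974 and was at 37.8 and 40.2 CPM in Vehicle and at 40.8 and 38.0 CPM in HDT. The groups overlapped, and the log2 fold change was 0.01, with a 95% interval of −0.15 to 0.18 (limma adjusted p = 0.894). At the deposited scaling it was 0.55 and called higher (limma adjusted p = 0.000118), close to the shift of 0.53 that all genes had there. Kit, the receptor that defines interstitial cells of Cajal but is also found on other cells, fell from 57.7 and 61.5 to 10.9 and 13.9 CPM. Of the 5 markers of those cells, 2 were lower and 1 was higher (1 and 1 as deposited), and their sum was 84.2 to 87.0 CPM in Vehicle and 39.7 to 45.9 CPM in HDT. None of the 6 smooth muscle markers passed the test, with sums of 2038 to 2893 CPM in Vehicle and 1739 to 2548 CPM in HDT.

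The ratio of Cftr to Ano1 restates the rise of Cftr, since Ano1 hardly changed with TMM. It rests on 14 and 7 Cftr reads in the Vehicle libraries. There were 10.5 and 5.06 Cftr reads per 1000 Ano1 reads in Vehicle and 105 and 81.4 in HDT (log2 difference 3.67, exact permutation p = 0.333, the smallest possible).

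Slc26a2 and Slc26a11 differ from the rest in that they are known mainly as sulfate transporters, Slc26a2 as the one that supplies sulfate for cartilage and mucin sulfation. Slc26a2 lies on chromosome 18 at 61192919 to 61211612. Its levels were 90.4 and 96.0 CPM in Vehicle and at 104 and 112 CPM in HDT. The rise was small, at 1.16-fold, though the groups did not overlap (log2 fold change 0.21, SE 0.07, limma adjusted p = 0.0408). The call was lost when Vehicle replicate 1 was left out (0.16, limma adjusted p = 0.284). Leaving out Vehicle replicate 2 (0.25, limma adjusted p = 0.0879) or HDT replicate 2 (0.17, limma adjusted p = 0.0935) also ended it. Nor was it called with the replicate number as a block (limma adjusted p = 0.0886) or with DESeq2 (adjusted p = 0.0721). In each of these settings Cftr was then the only member called higher.

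Slc26a11 lies on chromosome 11 at 119355557 to 119381079. Its levels were 3.81 and 3.22 CPM in Vehicle and at 3.21 and 2.50 CPM in HDT. The highest HDT value lay just under the lowest Vehicle value. The log2 fold change was −0.31 with a 95% interval of −0.73 to 0.12 (limma adjusted p = 0.231), and it was 0.22 at the deposited scaling, so its direction depended on the scaling.

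Measured per kb of exon, the order of the 9 genes in Vehicle was Slc26a9, Slc4a2, Slc26a2, Ano1, Slc26a7, Slc26a6, Slc26a11, with Cftr and Slc26a3 last and trading places between the 2 libraries. Slc26a2 (7.31 and 7.76 CPM per kb) and Ano1 (6.05 and 6.43) were neighbours, as were Ano1 and Slc26a7 (5.07 and 5.71), and in neither pair did the libraries overlap. After HDT, Slc26a7 had gone from rank 5 to rank 8, behind Cftr. Both HDT libraries kept Slc26a9, Slc4a2, Slc26a2 and Ano1 in the first 4 ranks.

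The sum over the 9 genes was 162 and 166 CPM per kb in Vehicle and 68.8 and 75.9 in HDT. Slc26a9 and Slc4a2 together made up 86.3% and 85.6% of it in Vehicle and 73.3% and 76.6% in HDT. The share of Slc26a2 was 4.60% ± 0.11 in Vehicle and 12.1% ± 0.20 in HDT, and that of Ano1 was 3.81% ± 0.10 and 8.75% ± 1.05 (SD, n = 2 each). Slc26a7 went from 3.29% ± 0.22 to 0.61% ± 0.24, below the 0.66% ± 0.20 of Cftr.

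**Figure D3:**
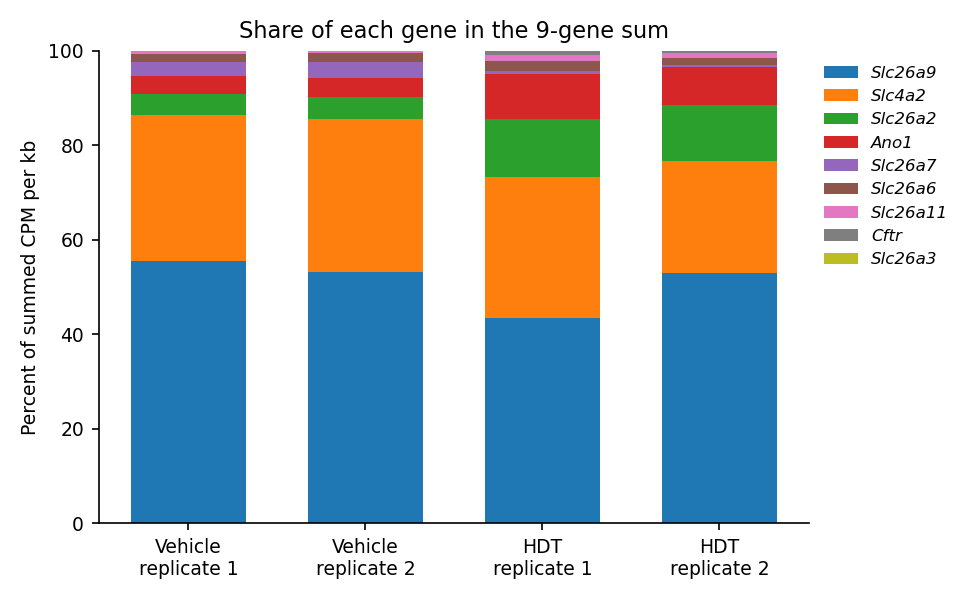
Share of each gene in the summed CPM per kb of the 9 genes, as stacked bars for the 4 libraries. Slc26a9 and Slc4a2 fill most of each bar, and Slc26a2 and Ano1 take larger shares in the HDT libraries.

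Reads relative to the proton pump were compared within each library for the 7 genes with at least 10 reads in all 4 libraries. Per 1000 reads of Atp4a plus Atp4b, Slc26a7 had 2.39 and 2.46 reads in Vehicle and 1.73 and 1.33 in HDT. Its log2 difference was −0.68, so Slc26a7 fell by more than the pump did in both HDT mice. Slc4a2 went the other way, from 36.0 and 35.4 to 103 and 108 reads, a log2 difference of 1.56. Slc26a9 went from 40.8 and 36.6 to 93.2 and 153 reads, a log2 difference of 1.63. For the other 4 genes the log2 difference was 1.93 for Slc26a6, 2.68 for Slc26a11, 3.01 for Ano1 and 3.20 for Slc26a2. Each comparison gave the smallest possible exact permutation p of 0.333.

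The direction turned with the choice of parietal genes for Slc4a2, Slc26a9 and Slc26a6, while Slc26a7, Ano1 and Slc26a2 kept theirs and the Slc26a11 groups overlapped. Against the 13 other parietal markers, the log2 difference was −3.45 for Slc26a7, −1.21 for Slc4a2, −1.14 for Slc26a9, −0.84 for Slc26a6 and −0.09 for Slc26a11, and it was 0.23 for Ano1 and 0.43 for Slc26a2. Car2, a carbonic anhydrase that other cells also express, made up 53.1% and 50.3% of those 13 genes' reads in Vehicle and 68.6% and 74.1% in HDT. Slc26a7 alone among the 4 genes that fell was lower against both denominators.

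**Figure D4:**
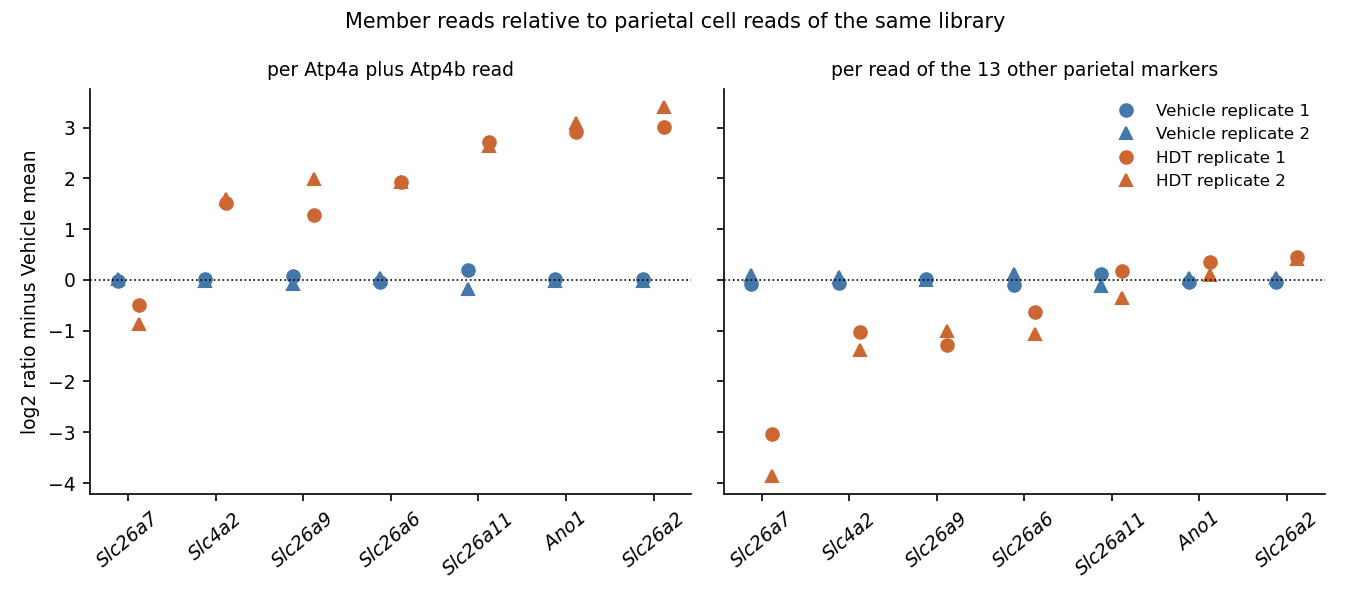
Log2 ratio of each gene's reads to parietal cell reads in the same library, minus the Vehicle mean, for 7 genes (circles, replicate 1; triangles, replicate 2). Against Atp4a plus Atp4b (left) the HDT libraries lie below the Vehicle libraries for Slc26a7 and above for the other 6 genes, and against the 13 other markers (right) they also lie below for Slc4a2, Slc26a9 and Slc26a6.

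Other genes of anion transport were taken from 8 lists. Of 77 genes in the table, 60 were tested, and 11 were higher, 12 lower and 37 without a call. The share called, 38.3%, was close to the 37.7% of all tested genes, and the median log2 fold change was 0.08. At the deposited scaling 42 were higher and 1 was lower. The lists are therefore read by their named genes rather than as groups.

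Among the other bicarbonate transporters of the SLC4 family, 2 of 6 tested were higher and 0 lower with TMM (median log2 fold change 0.31), and 5 were higher as deposited (0.84). The sodium-bicarbonate cotransporter Slc4a7 was at 31.1 and 31.9 CPM in Vehicle and at 43.9 and 47.2 CPM in HDT (log2 fold change 0.53, limma adjusted p = 0.000641). The basolateral cotransporter Slc4a4, given here for its abundance after its values were seen, was at 50.8 and 57.1 CPM in Vehicle and at 46.4 and 59.4 CPM in HDT, and its groups overlapped. In this list 1 gene was called higher without Vehicle replicate 2, HDT replicate 1 or HDT replicate 2. Of the other 5 SLC26 genes, 2 were tested and 1 was higher (both as deposited). That gene, Slc26a10, was at 110 and 113 CPM in Vehicle and at 158 and 164 CPM in HDT (0.53, limma adjusted p = 0.000353).

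The cation-chloride cotransporters load or unload chloride across the cell membrane. Of 7 tested, 2 were lower and 1 was higher. As deposited 1 was lower and 4 were higher, and the median log2 fold change was −0.11 with TMM and 0.42 as deposited. The potassium-chloride cotransporter Slc12a7, known as KCC4, fell from 200 and 230 to 96.8 and 102 CPM (log2 fold change −1.11, limma adjusted p = 4e-05) and was lower at the deposited scaling too (−0.58). Slc12a8 (−0.37) was lower and Slc12a9 (0.46) higher, and Slc12a8 was at 0.16 at the deposited scaling. Slc12a9 was not called without Vehicle replicate 1, and Slc12a8 not without Vehicle replicate 1, Vehicle replicate 2 or HDT replicate 1, nor with the replicate block (limma adjusted p = 0.0633) or DESeq2 (adjusted p = 0.0628).

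Of 8 tested genes of the CLC channels and exchangers, which acidify endosomes and lysosomes or conduct chloride, 5 were lower and 0 higher with TMM (median −0.30), but 0 lower and 4 higher as deposited (median 0.24). Clcn4 was at 76.4 ± 0.39 CPM in Vehicle and at 54.7 ± 0.48 CPM in HDT (SD, n = 2 each), with no overlap. Its log2 fold change was −0.48, that of Clcn6 was −0.48 and that of Ostm1, the partner of Clcn7, was −0.40, and these were 0.05, 0.05 and 0.13 at the deposited scaling. Without Vehicle replicate 2, 2 of the CLC genes were lower, and with the block, without HDT replicate 1 or without HDT replicate 2, 3 were. Clcn6 lost its call when any 1 mouse was left out, with no low-count filter, with the replicate block (limma adjusted p = 0.0834) and with DESeq2 (adjusted p = 0.134).

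Calcium-activated chloride channels are tuned by secreted CLCA proteins. Of the CLCA and bestrophin genes 7 were tested, of which 2 were higher and 0 lower with TMM (median 0.73) and 4 higher as deposited. Clca3a2 rose from 1.05 and 0.78 to 4.36 and 4.60 CPM (log2 fold change 2.27, limma adjusted p = 0.000113) and Clca4a from 2.53 and 2.003 to 5.77 and 5.84 CPM (1.36, limma adjusted p = 0.000474). The CLCA genes are near-identical copies of each other in part, so reads may be split between them. Without Vehicle replicate 1, 4 genes of that list were higher, and without Vehicle replicate 2, 3 were. Of 7 other anoctamins, the family of Ano1, 2 were higher and 0 lower with TMM (median 0.18), and 6 were higher as deposited (0.72). Ano9 rose from 11.2 and 11.8 to 21.3 and 21.2 CPM (0.88, limma adjusted p = 0.000126), while Ano10 (0.23) lost its call without Vehicle replicate 1, Vehicle replicate 2 or HDT replicate 2, with the replicate block (limma adjusted p = 0.104) and with DESeq2 (adjusted p = 0.0826).

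All 9 volume-regulated and related anion channel genes in the table were tested, and 2 were higher and 0 lower with TMM (median 0.16), while all 9 were higher as deposited (0.69). Ttyh3 rose from 9.94 and 11.7 to 21.3 and 17.1 CPM (log2 fold change 0.82) and Ttyh2 from 17.5 and 18.2 to 21.8 and 23.6 CPM (0.35). Among 14 tested scaffolds and kinases that hold or switch these transporters, 5 were lower and 1 was higher with TMM (median −0.08), but 0 lower and 8 higher as deposited (median 0.44). Slc9a3r2, a PDZ scaffold of CFTR and ion exchangers known as NHERF2, went from 70.0 and 67.4 to 44.1 and 41.1 CPM (−0.69), and the membrane linker Ezr from 1082 and 1076 to 718 and 733 CPM (−0.57). Ahcyl2, related to a bicarbonate transport activator, had a log2 fold change of −0.40. Its relative Ahcyl1, given here after its values were seen, was the 1 gene of the list called higher. It went from 110 and 120 to 146 and 137 CPM (0.30, limma adjusted p = 0.0112). At the deposited scaling Slc9a3r2 (−0.16) and Ezr (−0.04) had no call and Ahcyl2 was at 0.14. Without Vehicle replicate 1 or Vehicle replicate 2, 3 of these genes were lower.

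**Figure D5:**
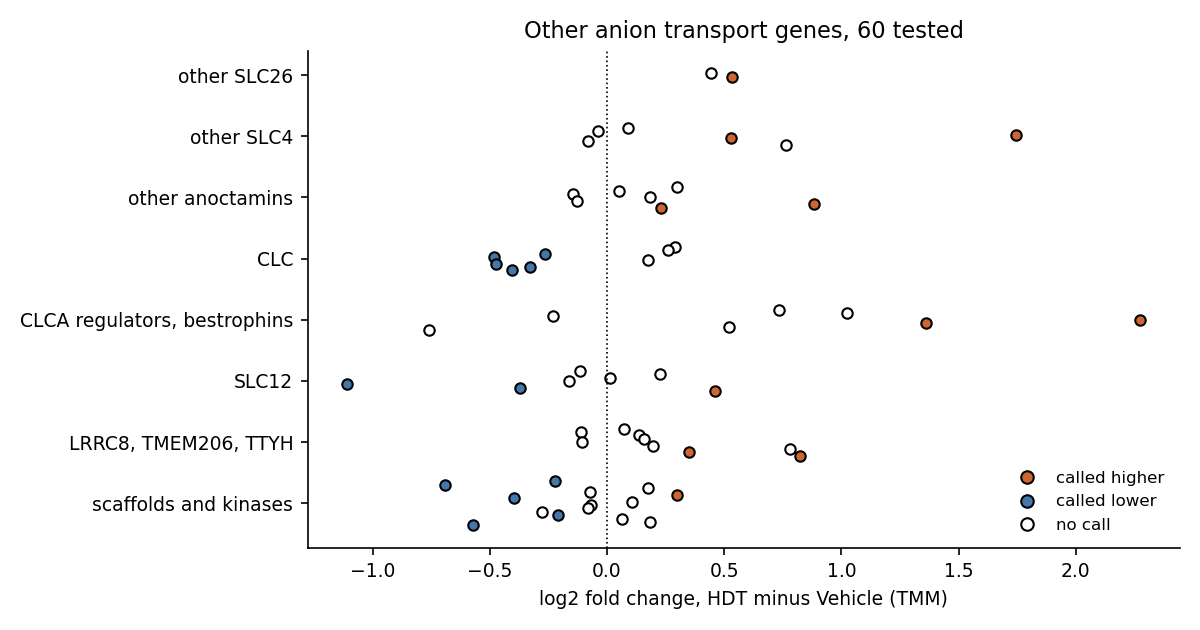
Log2 fold change of HDT against Vehicle with TMM for the 60 tested genes of the 8 lists, 1 point per gene (orange, called higher; blue, called lower; white, no call). Calls fall on both sides of 0, the CLC list has 5 calls below 0 and Clca3a2 lies farthest above 0.

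The gene nearest to each member in pattern was sought among 11859 genes with at least 5 CPM, by the distance between log2 CPM values centred on each gene over the 4 libraries. The nearest was Egf to Slc26a7 (distance 0.21), Runx1t1 to Slc4a2 (0.03), Plet1os to Slc26a9 (0.10), Gm13111 to Slc26a6 (0.06) and Adam8 to Cftr (0.50). For Slc26a2 it was Phf14 (0.01), for Ano1 Ift46 (0.01) and for Slc26a11 Fam126a (0.05). With 4 libraries such a match describes these mice alone.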

How the data were processed

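RNA of the whole corpus of 4 mice was sequenced. The submitters' processing notes name edgeR, featureCounts, STAR 2.7.1a and Subread 2.0.0, and GRCm38 (mm10) as the build. Annotation, strand and normalization are not given there. The authors deposited a signal per gene, whole read counts multiplied by a factor constant within a library. Division by that factor returned 100% whole reads (tolerance 0.01), and edgeR on these reads called 3358 genes higher and 3511 lower.

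Because the values are normalized, limma 3.58.1 (R 4.3.3, trend, robust) was the main test: filterByExpr kept 18285 genes, values were scaled by TMM factors (0.848, 0.818, 1.219 and 1.183 for Vehicle 1 and 2 and HDT 1 and 2), and log2(value + 1) was fitted with group alone, Benjamini-Hochberg adjusted over all tested genes at 0.05, two-sided. The fit was also run on simulated data, in which far fewer genes changed than were called here, as many up as down. It therefore cannot show how the scaling behaves under changes as wide as these. The p-values measure the spread between 2 mice a group, moderated over genes (median prior degrees of freedom 5.87). Alternatives used edgeR 4.0.16 and DESeq2 1.42.0, 4 other scalings, filters, pseudocounts, blocks and left-out mice. Of each list, the 3 called genes with the largest change and at least 1 CPM are named, and 1 nearest gene per member. Positions and exon lengths are from GENCODE M21. The members and lists were chosen with earlier results of these data known, and no list was tested as a set.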

Additional observations from a re-analysis of the deposited data

How the results depend on the processing

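The 4 falls and the rise of Cftr kept direction and call under all 16 alternatives. The replicate blocks cannot change a fold change in this design, only its call. TMM on library sizes without the 20 most abundant genes gave nearly the main values. Leaving out 1 mouse at a time, the log2 fold changes ranged from −3.98 to −3.31 for Slc26a7, −1.53 to −1.31 for Slc4a2, −1.56 to −1.14 for Slc26a9, −1.20 to −0.90 for Slc26a6 and 3.13 to 4.03 for Cftr. They ranged from 0.16 to 0.27 for Slc26a2, −0.48 to −0.11 for Slc26a11 and −0.035 to 0.082 for Ano1, and between 1 and 2 members were called higher. At the deposited scaling 11483 genes were higher and 998 lower, Ano1 was at 0.55 and called, Slc26a11 was at 0.22, and the 8 lists had 42 genes higher and 1 lower. There Clcn4 (0.049), Clcn6 (0.054), Ostm1 (0.13), Slc12a8 (0.16) and Ahcyl2 (0.14) had the opposite sign. DESeq2 on recovered reads gave 0.21 for Slc26a2 without a call, which left 1 member higher.

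The labels give same-numbered mice only a number in common and do not say what it stands for. The correlation of deviations between Vehicle replicate 1 and HDT replicate 1 was −0.155. With the replicate block 2367 genes were higher and 2626 lower, Slc26a2 (0.21) was not called, so 1 member was higher, and the 8 lists had 9 higher and 7 lower. Crossing the numbers, an alternative added after the data were seen, gave 4202 higher and 4323 lower. Leaving out 1 mouse, the lists had 6 to 9 genes lower and 10 to 12 higher. The cause of these changes was not tested, and leaving out 1 mouse also lowers the number of mice in the fit.

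Against Atp4b alone the log2 difference per read was 3.41 for Slc26a2, 2.14 for Slc26a6, −0.47 for Slc26a7, 2.89 for Slc26a11, 3.21 for Ano1 and 1.77 for Slc4a2. Against the other parietal markers it was 0.43, −0.84, −3.45, −0.088, 0.23 and −1.21 in the same order, and −1.14 for Slc26a9, which was at −0.62 against pit markers. Leaving out 1 mouse, the difference against Atp4a plus Atp4b ranged from −0.87 to −0.49 for Slc26a7, 1.52 to 1.60 for Slc4a2 and 1.27 to 1.99 for Slc26a9. It ranged from 1.89 to 1.97 for Slc26a6, 2.50 to 2.87 for Slc26a11, 2.91 to 3.10 for Ano1 and 3.01 to 3.40 for Slc26a2. Depth limits Slc26a3, with 18 reads in all, and Cftr in Vehicle.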
